A study of Neurospora crassa with 6 samples.

Results

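The genes described here are 8 genes of asexual sporulation in Neurospora crassa: eas, con-6, con-8, con-10, acon-2, rca-1, csp-1 and fl. They were taken by symbol from a table of 10559 genes, and all 8 were found. The table gives RPKM, reads scaled to the length of the gene and the depth of the library, in 6 libraries of polyadenylated RNA from tissue labelled as hyphae. Every library is labelled as the same strain, deleted for cry, vvd and wc-1. The labels say that it was kept on minimal slants for 2 weeks and then put in medium with 2% glucose for 45 min. Of the 6 libraries, 2 were in darkness, 2 at 1000 lux and 2 at 5000 lux. Nothing in the labels says whether both libraries of a condition are from separate cultures, so a p-value here measures the spread between the samples only, which may be technical. No strain with the 3 photoreceptor genes intact was analysed here, so the values show no loss or gain of a light response relative to wild type.

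In N. crassa aerial hyphae constrict into chains of conidia, the asexual spores, and a hydrophobin then coats each spore with a water-repellent layer of rodlets. Transcription factors such as FL start and carry this program, and the con genes are transcribed as it proceeds. In wild type, light also induces several con genes and csp-1 in hyphae through the White Collar complex, of which White Collar-1, one of the deleted proteins, is the photoreceptor. Vegetative hyphae in liquid medium form few or no conidia, so most of these transcripts are usually scarce there.

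The RPKM of the 6 libraries were computed over 21420000 to 28260000 reads, as recovered from the steps between the deposited values, and the counts of reads given below come from the same steps. The genes labelled as deleted were listed above 0 in every library, wc-1 at 6.31 to 9.04 RPKM, vvd at 1.95 to 3.44 and cry at 1.59 to 2.56. These are sums over whole gene models, so they do not check the labels. In the reference annotation cry also overlaps NCU00583, and without a stated strand setting the reads of the pair cannot be told apart. By the test described below vvd was called lower at 1000 lux than in darkness (log2 fold change -0.51, limma adjusted p = 0.04727), as were 7.82% of all genes tested. The levels of 5 genes of hyphae and growth were also read. They do not check the hyphal label, because growth genes are not limited to hyphae. All 5 were abundant, from the chitin synthase gene chs-1 at 53.3 to 64.2 RPKM and the Woronin body gene hex-1 at 1035 to 1220 to gpd-1, also called ccg-7, at 3587 to 4557. The same limit holds for hex-1, which overlaps NCU16405, and for pma-1, another of the 5, which overlaps NCU01681. By limma 0 of the 5 passed the test described below in any of the 3 comparisons, and by limma voom 0 as well. At 1000 lux against dark, 5000 lux against dark and 5000 against 1000 lux, 16.9%, 9.62% and 3.02% of all genes tested passed by limma. The shares by limma voom were 19.3%, 12.1% and 4.41%. In the same order 0, 0 and 1 of the 5 had an unadjusted p under 0.05, beside 31.0%, 24.9% and 15.6% of all genes tested.

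The 8 genes spanned a wide range of levels in RPKM, a scale per gene length. eas, the hydrophobin of the conidial surface, was the most abundant, at 70.6 to 231 RPKM over the 6 libraries, above at least 91.5% of the genes in the table. csp-1, a zinc finger repressor named for conidial separation, followed at 27.9 to 36.5 RPKM, and con-8 at 11.1 to 29.6. fl and rca-1 had 8.62 to 12.9 and 6.81 to 11.4 RPKM, acon-2 had 2.18 to 3.84, con-10 had 0.681 to 3.18 and con-6 had 0.298 to 0.848. Neighbours in this order overlapped in range, except eas with csp-1 and rca-1 with acon-2. con-6 and con-10, which also mark conidiation, had 6 to 15 and 13 to 49 reads in a library, against 2709 to 8322 for eas.

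**Figure D1:**
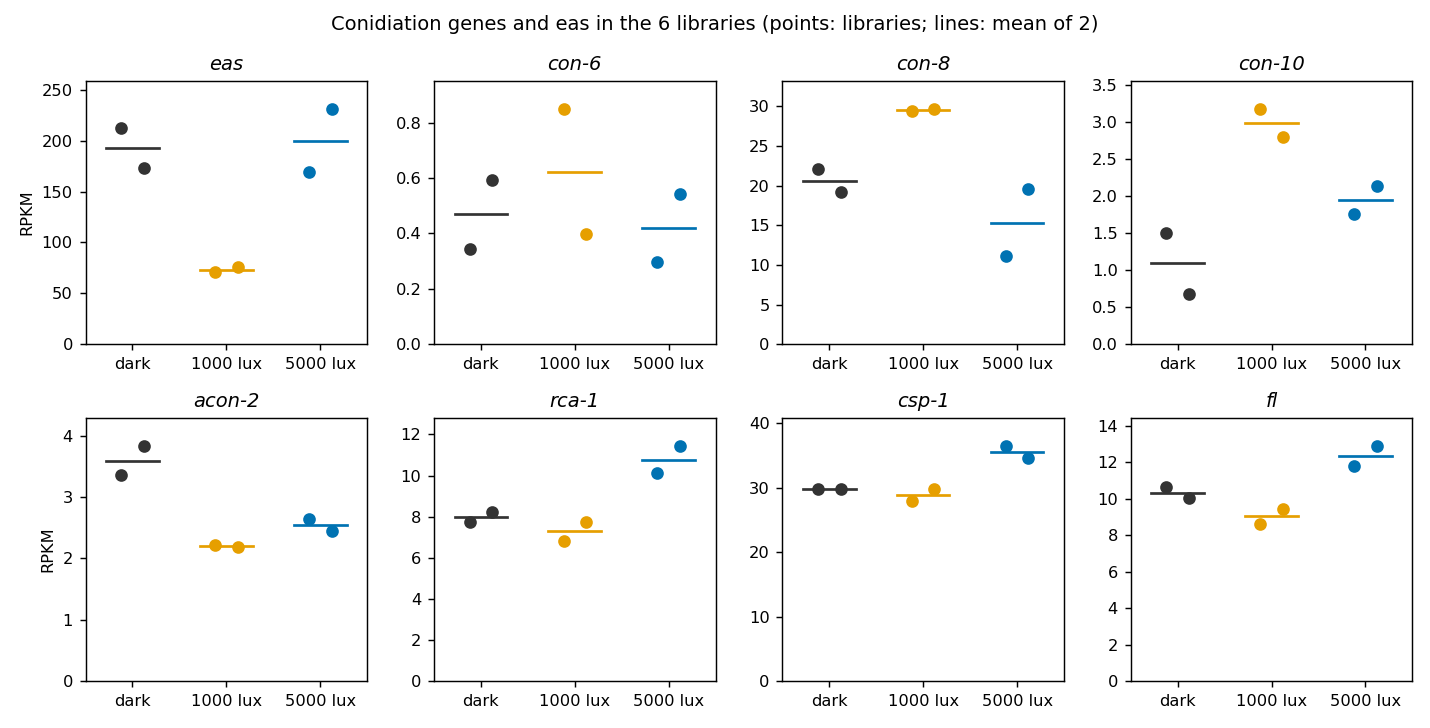
RPKM of each of the 8 genes (vertical axis, linear from 0, a scale of its own in each panel) in darkness, at 1000 lux and at 5000 lux; each point is 1 library and each line the mean of 2. eas lies at 70.6 and 76.1 RPKM at 1000 lux and above 169 in the other 4 libraries, con-8 and con-10 are highest at 1000 lux, and rca-1, csp-1 and fl are highest at 5000 lux.

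Each gene that reached 1 RPKM in 2 or more libraries was tested with limma on log2(RPKM + 1), with p-values adjusted over all 7841 genes tested and a call at an adjusted p under 0.05. Of the 8 genes, 7 passed this minimum and con-6 did not. Fold changes are on the log2(RPKM + 1) scale, which understates the change of low genes. Both light conditions are set against the same 2 dark libraries, and the third comparison shares its 1000 lux libraries with the first. At 1000 lux against dark, 3 of the 7 tested genes were called, con-10 higher and eas and acon-2 lower, where 16.9% of all genes tested were called, 9.13% higher and 7.82% lower. At 5000 lux against dark 0 of 7 were called by limma, where 9.62% of all genes were, 6.70% higher and 2.92% lower; 5 of the 7 had an unadjusted p under 0.05, as did 24.9% of all genes, and limma voom on the recovered reads called 1, acon-2, and 12.1% of all genes. At 5000 against 1000 lux, 3 of 7 were called, eas and rca-1 higher and con-8 lower, where 3.02% of all genes were, 1.66% higher and 1.36% lower. The median log2 fold changes of the 7 genes were -0.12, 0.23 and 0.29 in these comparisons, beside 0.00, 0.02 and 0.03 over all genes tested. The libraries of the 2 conditions did not overlap in 5, 5 and 7 of the 8 genes, and in 58.8%, 52.9% and 48.6% of all genes tested.

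**Figure D2:**
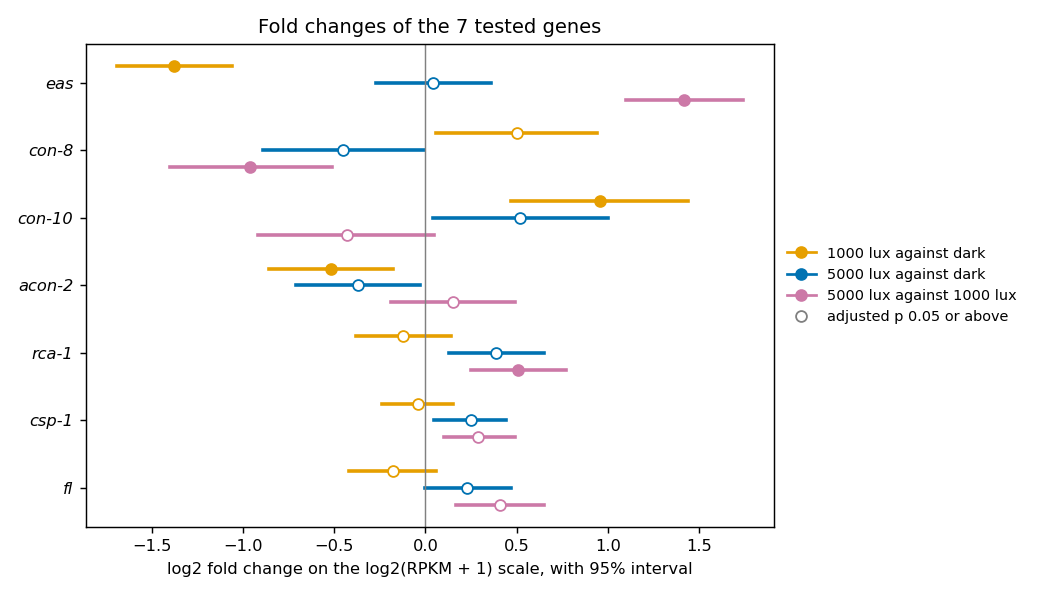
Log2 fold change on the log2(RPKM + 1) scale (horizontal axis) with its 95% interval from limma for the 7 tested genes, in the 3 comparisons. Filled points have an adjusted p under 0.05. eas sits at -1.38 and 1.42 in the comparisons that involve 1000 lux and at 0.04 for 5000 lux against dark.

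eas encodes the hydrophobin that forms the rodlet layer and is also known as ccg-2 and bli-7. The locus tag of eas is NCU08457. The dark libraries had 212 and 173 RPKM, those at 1000 lux 70.6 and 76.1, and those at 5000 lux 169 and 231. The 1000 lux libraries lay far below the other 4, and those of darkness and 5000 lux overlapped. The mean in darkness, 193 ± 27.5 RPKM (SD, n = 2, as for the SDs below), was 2.63 times the mean at 1000 lux, 73.3 ± 3.93, a log2 fold change of -1.38 by limma (SE 0.14, adjusted p = 0.0004589). At 5000 lux the mean was 200.1 ± 43.5 RPKM, 2.73 times that at 1000 lux (1.42 on the log2 scale by limma, SE 0.14, adjusted p = 0.001248). 5000 lux and darkness differed by 0.04, with a 95% interval of -0.27 to 0.36. Among the 8 genes, eas alone kept its calls at 1000 lux against dark and at 5000 against 1000 lux without each of the 6 libraries in turn and under the 10 other settings run. The whole list of conidial markers (eas, con-6, con-8, con-10 and con-13) summed to 194 to 237 RPKM in darkness, 104 to 109 at 1000 lux and 184 to 254 at 5000 lux, and eas made up most of each sum. The sums therefore do not show a shared fall of the list at 1000 lux. con-8, the next most abundant, was highest there, with means of 20.6, 29.5 and 15.3 RPKM in the same order. con-10 was also highest at 1000 lux, con-13 was lowest there, and the conditions of con-6 overlapped.

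Of 5 genes of sexual development, 2 were called higher at 1000 lux than in darkness and 0 lower, where 9.13% and 7.82% of all genes tested were. The first, asd-1, was at 63.0 ± 0.443 RPKM without light, 150.2 ± 25.2 under 1000 lux and 66.1 ± 1.04 under 5000 lux (log2 fold change 1.23 at 1000 lux against dark). It was also called lower at 5000 than at 1000 lux (-1.16, limma adjusted p = 0.0008377), as were 1.36% of all genes tested. The second, asd-4, was at 9.78 ± 1.89, 13.9 ± 1.02 and 14.0 ± 0.377 RPKM in the same order (0.48 at 1000 lux against dark). asd-4 was also called higher at 5000 lux than in darkness (0.49), as were 6.70% of all genes tested. Both asd-4 calls were kept without dark replicate 1 and lost without each of the other 5 libraries. Of the 10 other settings 7 kept each call. poi-2 and fmf-1 lay lower at 1000 lux than in darkness in both libraries, at 0.497 and 0.810 times their dark means, without passing the test. asd-3 lay between 0.524 and 1.51 RPKM. It was higher at 1000 lux than in darkness in both libraries, at 1.44 times its dark mean, also without passing the test. None of the 5 was at 0. The summed level of the 5 genes was 77.2 to 79.5 RPKM in darkness, 151 to 187 at 1000 lux and 84.8 to 86.3 at 5000 lux, and asd-1 alone made up 132 and 168 RPKM of the sums at 1000 lux. The part of these genes in the eas values was not tested. In bulk RNA fewer cells that make a transcript and less transcript per cell cannot be told apart.

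The con genes were isolated as transcripts of conidiating cultures, and con-8 and con-10 did not follow eas. con-8 (NCU09235) had 22.1 and 19.1 RPKM in the dark libraries, 29.5 and 29.6 in those at 1000 lux, and 11.1 and 19.5 in those at 5000 lux. It was highest in both 1000 lux libraries, and its 5000 lux libraries spread the most, the higher lying within the range of darkness. It was lower at 5000 than at 1000 lux by limma (log2 fold change -0.96, SE 0.20, adjusted p = 0.03405), with 15.3 ± 5.95 against 29.5 ± 0.117 RPKM. Without 5000 lux replicate 1 that value was -0.57 and the call was lost, as it was without either 1000 lux library. The difference between 1000 lux and darkness, 0.50 with a 95% interval of 0.06 to 0.94, did not pass the adjusted threshold (limma adjusted p = 0.1141), though it did with voom on the recovered reads (0.52, limma adjusted p = 0.03956).

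con-10 (NCU07325), in wild type a standard reporter of light and of conidiation, was at 1.51 and 0.681 RPKM in the dark libraries, at 3.18 and 2.80 under 1000 lux, and at 1.77 and 2.14 under 5000 lux. All 4 light libraries lay above both dark ones, and the 1000 lux libraries above those at 5000 lux. These values rest on 23 and 13 dark reads, 49 in each library at 1000 lux and 31 in each at 5000 lux, so counting error is large: the 95% Poisson intervals were 0.957 to 2.27 and 0.362 to 1.16 RPKM in darkness and 2.35 to 4.20 and 2.07 to 3.70 at 1000 lux. con-10 was higher at 1000 lux than in darkness, by 0.96 on the log2(RPKM + 1) scale in limma (SE 0.22, adjusted p = 0.01548), and by 1.56 with voom on the recovered reads, which uses no pseudocount of 1 RPKM (limma adjusted p = 0.03219). The ratio of the mean RPKM was 2.73. The call was lost without dark replicate 2, at 0.67, and without either 1000 lux library. At 5000 lux against dark the difference was 0.52 with a 95% interval of 0.04 to 1.00 (limma adjusted p = 0.1672), and at 5000 against 1000 lux it was -0.43, from -0.92 to 0.05. Without dark replicate 1 the former was 0.81 and passed (limma adjusted p = 0.04785).

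con-6 (NCU08769) lay below the minimum. In RPKM the dark libraries were at 0.343 and 0.594, those at 1000 lux at 0.848 and 0.398, and those at 5000 lux at 0.298 and 0.542, from 6 to 15 reads each. The 3 conditions overlapped, and the Poisson intervals of single libraries ran from 0.109 to 1.40 RPKM. With no minimum the log2 fold changes of con-6 were 0.14, -0.05 and -0.18 in the 3 comparisons, with limma adjusted p = 0.6727, 0.9046 and 0.7748; a difference was not detectable at this depth. In the reference annotation con-6 overlaps NCU08768, which had 35.1 to 44.7 RPKM, and without a stated strand setting the reads of the pair cannot be told apart.

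con-13 (NCU07324), another gene transcribed in conidiating cultures, is the next protein-coding gene to con-10 in the reference annotation, and its libraries were ordered differently. con-13 was at 0.39 and 0.242 RPKM without light, at 0.0429 and 0.226 under 1000 lux, and at 0.942 and 0.639 under 5000 lux, from 9 and 7, 1 and 6, and 25 and 14 reads. The 5000 lux libraries were the highest and the 1000 lux libraries the lowest, where con-10 was highest at 1000 lux. con-13 too was under the minimum. With none, its difference between 5000 and 1000 lux was 0.66 (SE 0.15), which did not pass (limma adjusted p = 0.1164).

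**Figure D3:**
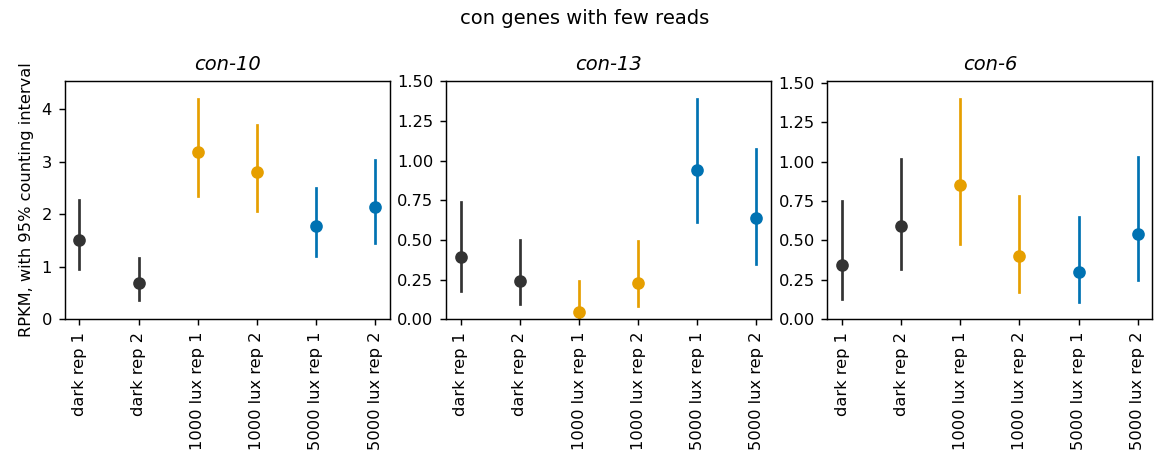
RPKM (vertical axis, linear from 0) of con-10, con-13 and con-6 in each of the 6 libraries, with exact 95% Poisson intervals of the recovered reads, which cover counting error only. con-10 is highest at 1000 lux and con-13 at 5000 lux, while the intervals of con-6 overlap in all libraries.

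Among the regulators, rca-1, csp-1 and fl had similar profiles and acon-2 another. rca-1 (NCU01312) encodes a MYB-type transcription factor related to FlbD of Aspergillus. Its values were 7.75 and 8.23 RPKM in the dark libraries, 6.81 and 7.75 under 1000 lux, and 10.1 and 11.4 under 5000 lux. Both 5000 lux libraries lay above the other 4. At 5000 against 1000 lux rca-1 was higher by 0.51 (SE 0.12, limma adjusted p = 0.04979, at the edge of the threshold), and at 5000 lux against dark the difference was 0.39 (95% interval 0.13 to 0.65, limma adjusted p = 0.06612). The call was lost without each of the 4 light libraries and under 6 of the 10 other settings, median-of-ratios scaling (0.48, limma adjusted p = 0.05125) and quantile normalization (0.45, limma adjusted p = 0.07463) among them.

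fl (NCU08726), the zinc cluster transcription factor fluffy, which macroconidiation requires and which activates eas in conidiating wild type, had 10.7 and 10.03 RPKM in darkness. It had 8.62 and 9.46 RPKM at 1000 lux and 11.8 and 12.9 at 5000 lux, so that the 3 conditions did not overlap. Its difference between 5000 and 1000 lux was 0.41 (95% interval 0.17 to 0.65, limma adjusted p = 0.07747), and with voom on the recovered reads it passed at 0.44 (limma adjusted p = 0.04435). The lowest values of fl and of eas were both at 1000 lux. The mean of fl there was 9.04 ± 0.59 RPKM against 10.3 ± 0.448 in darkness, a difference of -0.18 with a 95% interval of -0.42 to 0.06. The part of fl in the eas values was not tested.

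csp-1 (NCU02713) had 29.8 and 29.7 RPKM without light, 27.9 and 29.8 under 1000 lux, and 36.5 and 34.7 under 5000 lux. Darkness and 1000 lux overlapped, and both 5000 lux libraries lay above them. Its differences were -0.04 (95% interval -0.24 to 0.15) at 1000 lux against dark, 0.25 (0.05 to 0.44) at 5000 lux against dark and 0.29 (0.10 to 0.49) at 5000 against 1000 lux; the limma adjusted p-values were 0.7649, 0.1068 and 0.1213, and the gene was called in no comparison.

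acon-2 (NCU00478), named for aconidial mutants blocked early in the constriction of aerial hyphae, was at 3.35 and 3.84 RPKM in the dark libraries, at 2.22 and 2.18 under 1000 lux, and at 2.65 and 2.45 under 5000 lux. Both dark libraries lay above the 4 light libraries. At 1000 lux acon-2 was lower than in darkness by limma (log2 fold change -0.52, SE 0.15, adjusted p = 0.04267), and without each of the 6 libraries in turn it was -0.59 to -0.44 with the call lost each time. At 5000 lux against dark it was -0.37 (95% interval -0.71 to -0.03, limma adjusted p = 0.1599), and with voom -0.50 (limma adjusted p = 0.04027). Between 5000 and 1000 lux the difference was 0.15, from -0.19 to 0.49.

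The profiles of the 7 tested genes over the 6 libraries were also set beside each other, as log2(RPKM + 1) centred on the mean of each gene. The root mean square difference was 0.0794 between rca-1 and fl, 0.0843 between csp-1 and fl and 0.116 between rca-1 and csp-1, the smallest of the 21 pairs. It was 1.03 between eas and con-8 and 1.01 between eas and con-10, the largest. These differences also depend on how much each gene varied: the root mean square of the centred profile was 0.678 for eas, 0.451 for con-8, 0.43 for con-10 and 0.133 to 0.228 for the other 4.

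Over all genes tested, those most like rca-1 were NCU01032, ada-1 and the DNA repair gene mus-38, at root mean square differences of 0.0493, 0.068 and 0.0791. ada-1 encodes a bZIP transcription factor whose deletion alters asexual and sexual development. Those most like eas were NCU04583, NCU11356 and mig-4, at 0.292, 0.306 and 0.308. NCU04583 was at 58.9 and 42.8 RPKM in the dark libraries, at 18.7 and 19.7 under 1000 lux and at 45.3 and 35.6 under 5000 lux. Of the 7841 genes, 6 came within a difference of less than 50% of the variation of eas itself. With the limit set by each gene's own variation there were 23 for con-8, 64 for con-10, 174 for acon-2, 42 for rca-1, 60 for csp-1 and 68 for fl. Those most like con-8 were NCU01108, NCU02317 and NCU16445 (0.135 to 0.148), those most like con-10 were NCU09714, NCU09419 and NCU05148 (0.106 to 0.128), and those most like acon-2 were NCU05901, NCU08004 and NCU06065 (0.0325 to 0.0372). All rest on the same 6 libraries.

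**Figure D4:**
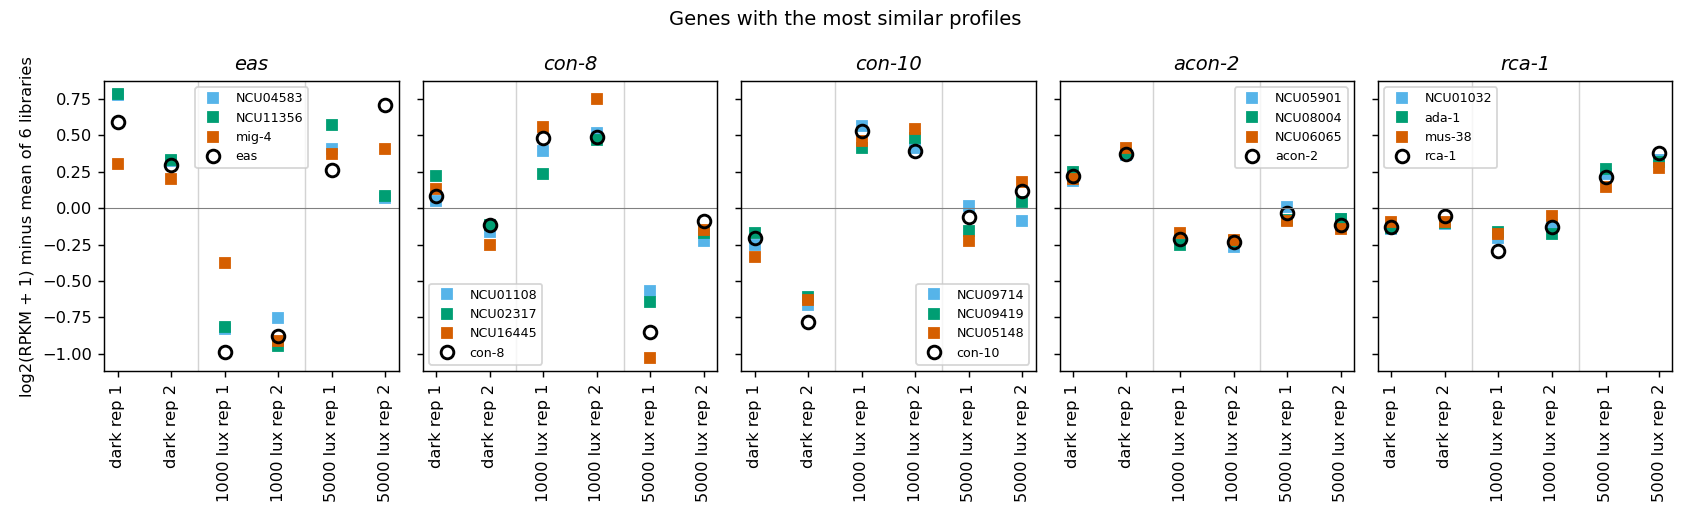
Log2(RPKM + 1) minus the mean of the 6 libraries (vertical axis) in each library for the 5 genes called in any comparison (open circles) and the 3 genes with the most similar profile (squares). eas is lowest in both 1000 lux libraries, and its nearest genes differ from it by 0.292 to 0.308, while those of acon-2 differ by at most 0.0372. These differences also depend on how much each gene varied, with a root mean square of 0.678 for eas and 0.224 for acon-2.

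A further 17 genes of conidiation and its regulation were looked up by symbol, of which 14 were found (con-11, lae-1 and wet-1 were not matched) and 13 passed the minimum. At 1000 lux against dark 2 of the 13 were called higher and 1 lower, at 5000 lux against dark 2 higher and 0 lower, and at 5000 against 1000 lux 1 higher and 1 lower, where 16.9%, 9.62% and 3.02% of all genes tested were called. Their median log2 fold changes were -0.09, -0.10 and 0.09. fld, named fluffyoid for a phenotype like that of fl, stood at 18.0 ± 1.09 RPKM in the dark, 11.8 ± 0.846 under 1000 lux and 14.9 ± 0.433 under 5000 lux. It was lower at 1000 lux than in the dark (-0.57 on the log2 scale, SE 0.10, limma adjusted p = 0.005119), without each library in turn as well. ccg-9, the trehalose synthase gene, whose loss affects conidiophores, stood at 3.92 ± 0.408, 8.44 ± 0.284 and 3.90 ± 0.424 RPKM in the same order. It was higher at 1000 lux than in darkness (0.94, SE 0.13, limma adjusted p = 0.001845) and lower at 5000 than at 1000 lux (-0.95, SE 0.13, limma adjusted p = 0.008332). The latter call was lost without either 1000 lux library and without 5000 lux replicate 1, at -1.04 to -0.92.

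ada-1 had 109 ± 1.70, 105 ± 0.523 and 145 ± 3.47 RPKM and was higher at 5000 lux than in darkness (0.41, SE 0.08, limma adjusted p = 0.009439) and than at 1000 lux (0.46, SE 0.08, limma adjusted p = 0.01172). Without either 5000 lux library the former call was lost, at 0.39 and 0.43, and the latter was lost without each of the 4 light libraries. ada-1 overlaps NCU16460 in the reference annotation. ccg-1, a clock-controlled gene repressed by glucose, was higher than in darkness at both intensities (0.62 and 0.74), with 644 and 742 RPKM in the dark libraries and 1006 to 1177 in the 4 light libraries. The remaining 9 tested genes were called in no comparison. Among them the medusa-type regulator acon-3 had 1.74 to 3.26 RPKM, and rco-1, whose product represses con-10 in wild type, had 72.6 to 88.8.

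**Figure D5:**
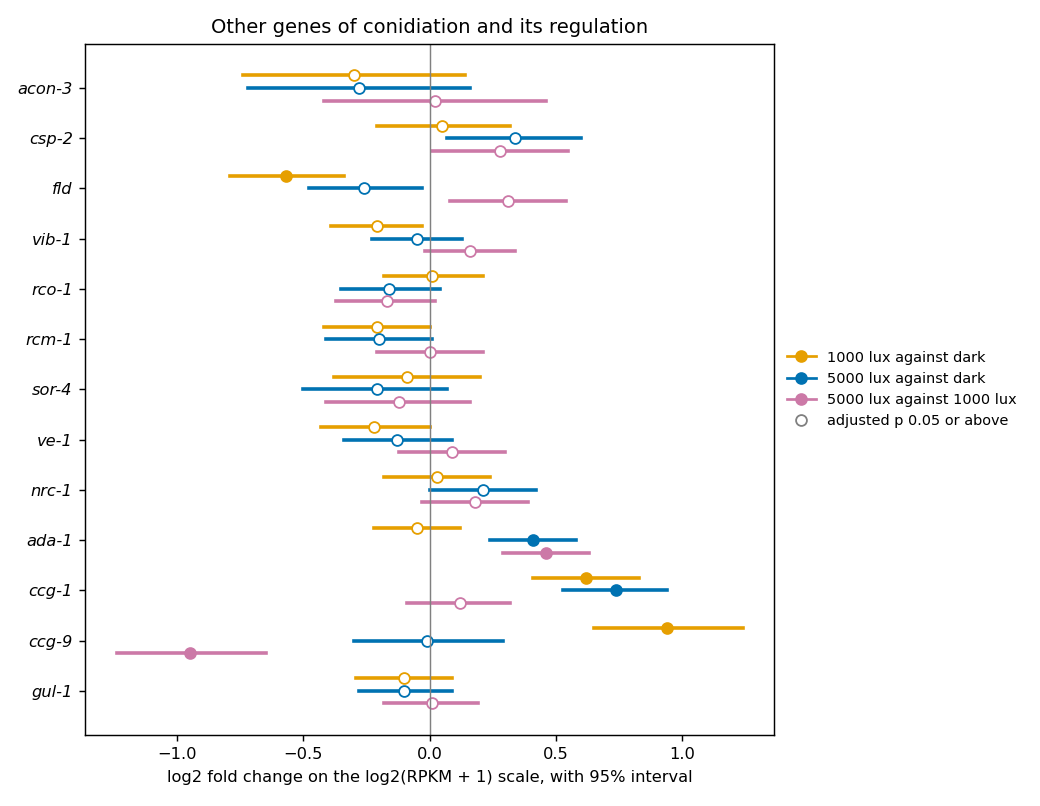
Log2 fold change on the log2(RPKM + 1) scale (horizontal axis) with its 95% interval from limma for 13 other genes of conidiation and its regulation in the 3 comparisons; filled points have an adjusted p under 0.05. ccg-9 stands out at 1000 lux (0.94 against dark, -0.95 for 5000 against 1000 lux), ada-1 at 5000 lux and ccg-1 at both.

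The protein-coding genes next to the 8 in the reference annotation were also examined, 16 in all, including con-13 beside con-10. Of these 10 were tested. At 1000 lux against dark 2 were called higher and 2 lower, where 16.9% of all genes were called, and at 5000 lux against dark 1 higher, where 9.62% were. At 5000 against 1000 lux 0 were called by limma and 0 by voom, where 3.02% and 4.41% of all genes were. There 3 had an unadjusted p under 0.05, as did 15.6% of all genes. With voom the calls at 1000 lux against dark were 2 higher and 1 lower, where 19.3% of all genes were called. At 5000 lux against dark they were 2 higher and 0 lower, where 12.1% were. Both genes beside con-8 were called lower at 1000 lux, where con-8 had its highest values: NCU09236 at -0.87 (2.57 ± 0.348 to 0.948 ± 0.211 RPKM, limma adjusted p = 0.0138) and NCU09233 at -0.42 (limma adjusted p = 0.04155). The call of NCU09236 was lost without dark replicate 1 and without 1000 lux replicate 1, at -0.77 and -0.76, and its change was -1.42 with voom, -1.36 with a pseudocount of 0.1 and -0.35 with a pseudocount of 5. That of NCU09233 was lost without each library except dark replicate 2, at -0.51 to -0.32, and under 5 of the 10 other settings. The kinase gene stk-52, beside con-6, was higher at both intensities (0.55 and 0.71). NCU02712, beside csp-1, was higher at 1000 lux (0.52). The neighbours of eas, NCU10730 and NCU08456, had at most 0.423 and 1.98 RPKM.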

How the data were processed

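RNA of 6 libraries was measured, 2 per condition, grouped by the light condition in the labels. The authors deposited 1 table of RPKM values. Per the submitters' processing notes CASAVA 1.8 and HISAT were used; for the build, annotation, counter and strand setting nothing is given in the sources used here. A RefSeq gene table of the NC12 assembly, used for symbols, overlaps and neighbours only, matched 10526 of the 10559 genes. No sequences are given.

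Reads were recovered from the deposited RPKM as the smallest whole numbers with a whole gene length; within 0.005 reads plus a relative 3e-07 all 9773 genes above 0 came out whole, and 1287 of them had under 20 reads in any library, where the number is ambiguous. Intervals of reads are exact Poisson intervals at 95%; they and floors cover counting error only.

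The test was limma 3.58.1 in R 4.3.3 with an intensity trend on log2(RPKM + 1), fitted to the 3 groups together (3 residual degrees of freedom, prior 6.87), Benjamini-Hochberg adjusted over 7841 genes. It was tested on simulated data. Alternatives were pseudocounts of 0.1 and 5, no minimum, a mean of at least 5 RPKM, 2 scalings, no trend, only the groups compared, a replicate block, limma voom on the recovered reads scaled to their totals, and leaving out each library. Where a group is left with 1 library, that library is assumed to vary like the others.

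The 8 genes and the lists were chosen with earlier results of these data known. All 8 are named, as are listed genes called in any comparison and the 3 most similar profiles per called gene; the neighbouring genes were added with the values known. Intervals and figures used Python 3.11.15, pandas 2.3.3, scipy 1.17.1 and matplotlib 3.10.9.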

Additional observations from a re-analysis of the deposited data

Results flagged for a closer look

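The values of 3 genes differed between 1000 and 5000 lux by the direct test of 5000 against 1000 lux. eas was higher at 5000 lux by 1.42 on the log2(RPKM + 1) scale (limma adjusted p = 0.001248), con-8 was lower by -0.96 (limma adjusted p = 0.03405), and rca-1 was higher by 0.51 (limma adjusted p = 0.04979). The libraries of the 2 intensities did not overlap in these 3 genes, as in 48.6% of all genes tested. Of the 10 other settings, 10 kept the call of eas, 8 that of con-8 and 4 that of rca-1. Without a library the values ran from 1.20 to 1.64 for eas, -1.34 to -0.57 for con-8 and 0.42 to 0.59 for rca-1. As given above, the calls of con-8 and rca-1 were lost without some libraries, and that of eas was not. Against darkness neither con-8 nor rca-1 was called. At 1000 and 5000 lux their limma adjusted p-values were 0.1141 and 0.1885 for con-8 and 0.5276 and 0.06612 for rca-1. Groups of 2 libraries are too small to look for a single library far from the others.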

How the results depend on the processing

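Fold changes were recomputed for 17 genes: the 7 tested conidiation genes, fld, ada-1, ccg-1 and ccg-9, and 6 called genes of sexual development or beside the 8 (asd-1, asd-4, stk-52, NCU09236, NCU09233 and NCU02712), these 6 chosen after seeing the data. Of 807 values, 723 kept their direction and their side of the threshold, 64 kept the direction and lost the call, 10 gained one and 10 changed sign. The sign changes were all of uncalled values near 0: at 5000 lux against dark, eas at -0.01 with quantile normalization, -0.10 without dark replicate 2 and -0.18 without 5000 lux replicate 2 (-0.18 to 0.27 without a library), and ccg-9 at 0.08 without either of the same 2 libraries (-0.09 to 0.08); at 1000 lux against dark, csp-1 at 0.00 without 1000 lux replicate 1; and at 5000 against 1000 lux, asd-4 at -0.02 with median-of-ratios scaling, -0.04 with quantile normalization and -0.06 to 0.08 without a library. The cause was not tested.

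The 3 conidiation genes called at 1000 lux against dark were 1 with a mean of at least 5 RPKM, which leaves con-10 and acon-2 out, and 1 to 3 without a library. The 0 at 5000 lux against dark became 1 with voom and 0 to 1 without a library. The 3 at 5000 against 1000 lux were 1 with no minimum, 1 with no variance trend and 1 to 3 without a library. With voom con-8 was also called at 1000 lux against dark, which made 2 conidiation genes higher and 2 lower there. Over all genes, 754 calls at 5000 lux against dark became 463 with no minimum and 479 with no trend, and 237 at 5000 against 1000 lux became 89 and 42. Without a library the calls over all genes were 423 to 1141, 129 to 680 and 19 to 356 in the 3 comparisons, fewest without 1000 lux replicate 1, 5000 lux replicate 1 and 5000 lux replicate 1. At 5000 lux against dark 69.6% of all calls were higher, but 58.6% with median-of-ratios scaling and 57.2% with quantile normalization.

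With a replicate block, 2, 0 and 3 conidiation genes were called; the call of acon-2 was lost at -0.52 (limma adjusted p = 0.05297) and no other call of the 8 genes changed. Libraries share only a number here: replicate differences correlated at 0.03, -0.09 and 0.05 across genes between pairs of conditions. con-6, con-10 and con-13 are limited by their reads.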
